A study of Mus musculus with 4 samples.

Results

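Autophagy delivers proteins and organelles to the lysosome in a double membrane, the autophagosome, and the lysosome degrades them with acid hydrolases. The 37 genes described here were chosen by name as the core of this route: receptors that hold the cargo, the ATG8 proteins and the enzymes that couple them to membrane, the kinases that start the process, the MiT/TFE transcription factors of lysosomal genes, and proteins of the lysosome itself. Earlier results of these data were known when they were chosen, so contrasts with all genes are not those of a list picked blind. All 37 were among the 27430 gene names on the array, with 54 probes, and 36 were measured in every comparison.

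The RNA came from NIH-3T3:Per2-Luc cells, a line of mouse embryonic fibroblasts that carries luciferase under the *Per2* promoter. Cells given 5 mM H2O2 for 10 min (the cOS-pulse, for critical oxidative stress) were harvested 4 h, 20 h and 32 h later. Control cells, labeled 4 h, received 0 mM H2O2 and a change to fresh medium. The paper regards that change as a weak stimulus for resetting circadian clocks. Each condition was measured on 1 one-color array, and all 4 arrays lay on 1 slide. With 1 array per condition there was no replicate check, no test was run, and every time point was set against the same control array. No control was labeled 20 h or 32 h. At those times the pulse and the longer time in culture cannot be told apart.

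Values are given as the scaled log2 signal, which is the log2 signal of a probe minus the 75th percentile of its array, and as the log2 ratio between 2 arrays. Where a gene had several probes, the brightest stands for it. The spot error of a log2 ratio came from the scanner software, had a median of 0.20 for these genes, and covers the spot only. Over 228 probes printed 10 times on each array, the SD of the ratio between 4 h and the control across spots had a median of 0.0547. Between 52.7% and 59.1% of probes were well above background. Of 12 fibroblast markers, 11 were detected on every array. Of these 11, 9 were below the control at 4 h (median log2 ratio -0.38, lowest *Pdgfrb* at -1.35), 10 at 20 h (median -0.24, lowest *Thy1* at -1.39, 3 past 2-fold) and 10 at 32 h (median -0.30). Of 7 macrophage markers, *Csf1r*, *Itgam* and *Cd14* were detected on every array while *Ptprc*, *Emr1* and *Lyz2* were detected on none. The summed level of the macrophage list lay between 3.79 and 5.07 on the scaled log2 axis. It followed *Itgam*, which was at 4.35 in the control and highest at 4 h with 4.92, whereas *Cd14* was highest at 32 h. Of 6 epithelial markers only *Krt8* was detected on every array, with a log2 ratio of 1.17 at 4 h. Of 5 endothelial markers *Kdr* and *Pecam1* were, at 0.36 and 0.71. *Cdh5*, a dim endothelial marker at -4.12 in the control, was detected on 3 arrays, with a log2 ratio of 1.87 at 4 h and 0.71 at 20 h. The part of these lists in the ratios below was not tested. In such bulk RNA, fewer cells of a type and less RNA per cell cannot be told apart.

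At 4 h, the receptor gene *Sqstm1* and the ATG8 gene *Gabarapl1* were higher by more than 2-fold and *Atg5* was lower by 2-fold. No other gene of the 36 passed 2-fold by its brightest probe. Thus 2 of 36 (5.56%) were at least 2-fold higher, beside 11.3% of all 17154 genes with a ratio, and 1 of 36 (2.78%) was at least 2-fold lower, beside 8.74%. At 1.5-fold, 7 genes (19.4%) were higher and 3 (8.33%) lower, beside 24.5% and 17.1% of all genes. These shares were below the background in both directions. The background counts bounds, however, whereas all 36 genes were measured. Of all genes with a measured ratio, 19.2% were above *Gabarapl2* at 0.63, the lowest of the 7. Below *Pik3c3* at -0.84, the highest of the 3, were 11.4%. Both values lie beyond 1.5-fold, so these are not the 1.5-fold shares without bounds, which can only be larger. In the lower direction that share lies between 11.4% and the 20.2% that were below *Ulk2* at -0.50. Below *Atg5*, at the 2-fold threshold, were 8.61%. The middle of the group lay higher than that of all genes, with a median log2 ratio of 0.31 over the 36 genes and 0.15 over 14671 genes. 28 of the 36 ratios (77.8%) were above 0, beside 59.1% of all genes, and 26 were above the median of all genes.

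**Figure D1:**
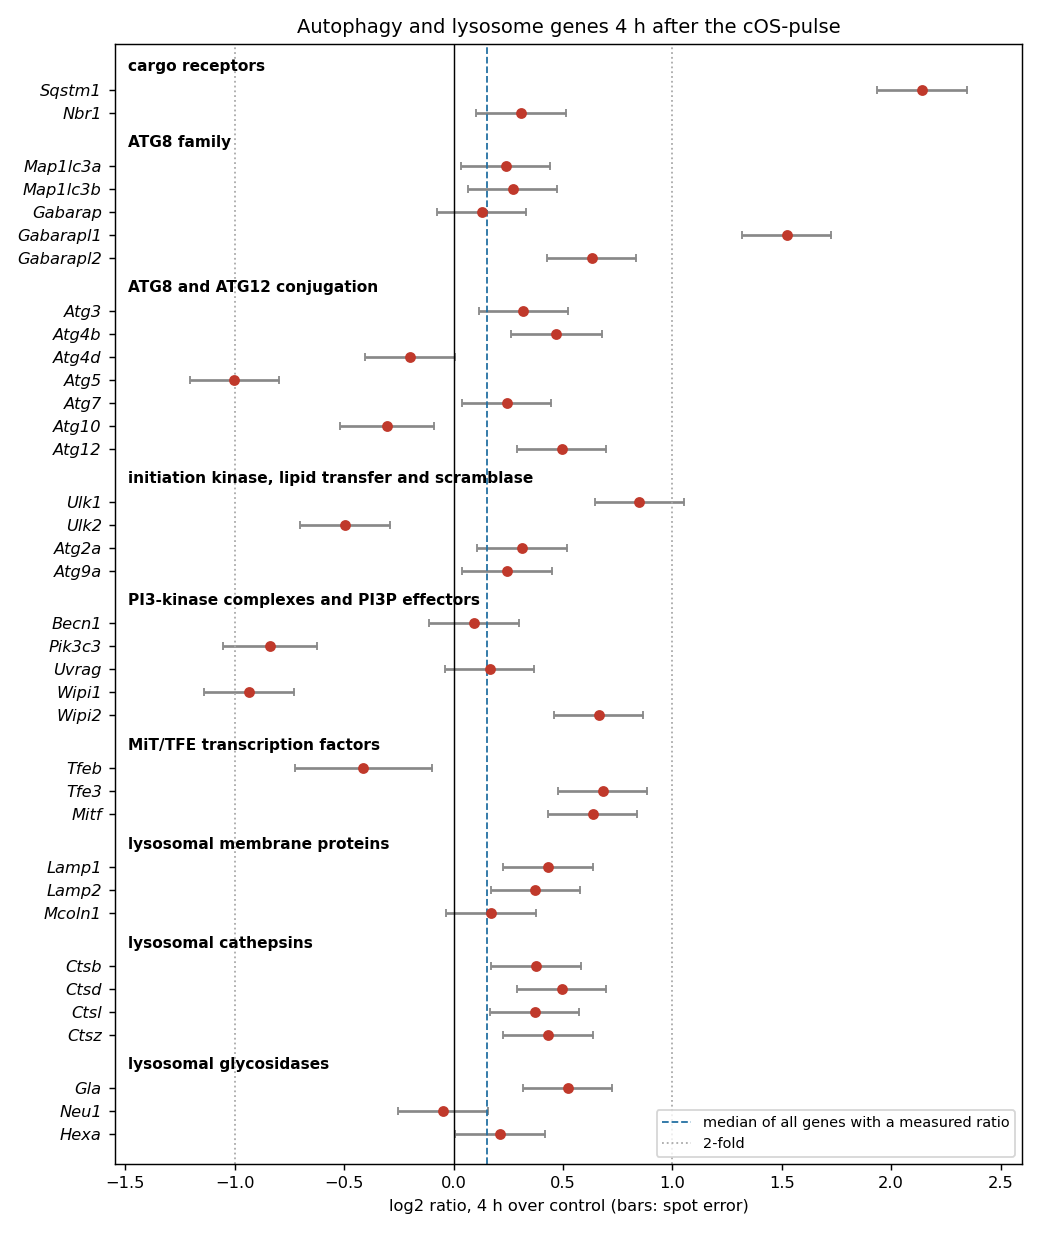
The log2 ratio of 4 h over the control (x axis) for each of the 36 measured genes, ordered by role (y axis), with the spot error as bars; the dashed line is the median of all genes at 0.15 and the dotted lines mark 2-fold. *Sqstm1* at 2.14 and *Gabarapl1* at 1.52 stand to the right of the others, and *Atg5*, *Wipi1* and *Pik3c3* lie to the left.

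The cargo receptors bind ubiquitin-marked cargo on one side and ATG8 proteins on the other. *Sqstm1*, which encodes p62, had a scaled log2 signal of 1.30 in the control, 3.44 at 4 h, 1.23 at 20 h and 1.28 at 32 h. The 4 h array thus stood alone, and the other 3 differed from each other by less than the spot error. The log2 ratio at 4 h was 2.14 ± 0.20 (spot error), or 4.41-fold, and 0.961% of all genes with a measured ratio were above it. The second probe of *Sqstm1*, a dimmer one, gave 1.88 at 4 h and -0.23 and -0.28 at 20 h and 32 h. The brighter probe lies at chr11:50015985-50016044 of mm9 and was designed for its RefSeq transcript. *Nbr1*, a related receptor, had a log2 ratio of 0.31 ± 0.21 at 4 h, 0.06 at 20 h and 0.13 at 32 h. *Optn*, which encodes optineurin, stayed below the detection limit of all 4 arrays and has no ratio.

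The ATG8 proteins are coupled to a lipid of the growing membrane and hold both the receptors and the machinery. All 5 genes had ratios above 0 at each time, though at 4 h those of *Map1lc3a*, *Map1lc3b* and *Gabarap* turned under some other scalings of the arrays. They differed most at 4 h, where they ranged from 0.13 to 1.52. *Gabarapl1* (chr6:129492254-129492313, mm9) had a scaled log2 signal of 5.07 in the control, 6.59 at 4 h, 5.37 at 20 h and 5.42 at 32 h. Its log2 ratio was 1.52 ± 0.20 at 4 h, or 2.87-fold, then 0.31 and 0.35, so that 4 h was the highest of the arrays. *Gabarapl2* had a signal of 3.09 in the control, 3.72 at 4 h, 3.22 at 20 h and 3.27 at 32 h, and its ratio at 4 h was 0.63 ± 0.20. The LC3 genes showed another order of the arrays, with 32 h the highest, though by less than the spot error over 20 h. *Map1lc3b* had ratios of 0.27, 0.37 and 0.46 and *Map1lc3a* of 0.24, 0.29 and 0.35 at 4 h, 20 h and 32 h.

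*Gabarap* itself depended on the probe. Its brightest probe had a signal of 5.39 in the control, 5.52 at 4 h, 5.62 at 20 h and 5.60 at 32 h, and a ratio at 4 h of 0.13 ± 0.20, and a second probe of the same transcript gave 0.15. The remaining probe, assigned by the array design to an Ensembl transcript, had a signal of -3.26 in the control, -1.50 at 4 h, -3.22 at 20 h and -3.01 at 32 h. Its log2 ratio at 4 h was 1.77, or 3.40-fold, so that 4 h alone stood apart, as for *Sqstm1* and *Gabarapl1*. The 60 bases of this probe were found in the RefSeq promoter window of *Gabarap* on the strand of the gene, at bases -60 to -1, which end just before the annotated start. The stretch is shown because it places the differing probe outside the RefSeq transcript. It lies at chr11:69991270-69991369 of GRCm38.p6, plus strand, and the probe is in capitals.

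Gabarap: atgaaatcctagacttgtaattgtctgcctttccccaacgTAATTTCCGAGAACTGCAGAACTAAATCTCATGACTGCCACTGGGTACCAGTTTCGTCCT

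The conjugation enzymes attach ATG8 to lipid and ATG12 to ATG5. The 7 genes of these couplings, *Atg5* and *Atg12* among them, differed in direction at 4 h. Ratios were above 0 in 4, of which those of *Atg3* and *Atg7* turned under other scalings, and below 0 in 3. *Atg5*, the acceptor of ATG12, had a scaled log2 signal of 2.08 in the control, 1.08 at 4 h, 2.10 at 20 h and 2.01 at 32 h. Only the 4 h array was low, and the log2 ratio there was -1.0 ± 0.20, a 2.0-fold difference at the threshold itself. The next lowest gene, *Wipi1* at -0.94, lay just outside it. *Atg12*, whose product is joined to ATG5, was instead highest on the later arrays. Its signal was 3.08 in the control, 3.58 at 4 h, 3.95 at 20 h and 3.86 at 32 h, with ratios of 0.49, 0.86 and 0.78. The second *Atg12* probe gave 0.36, 0.80 and 0.74. At 20 h, 1.11% of all genes had a higher ratio than *Atg12*.

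The other genes of the couplings, which encode enzymes, differed less from the control. *Atg7*, the E1-like enzyme of both couplings, had ratios of 0.24, 0.45 and 0.28 at the 3 times, and *Atg3*, the E2-like enzyme of ATG8, of 0.32, 0.14 and 0.03. *Atg10*, the E2-like enzyme of ATG12, was at -0.31 ± 0.22 at 4 h and at 0.27 and 0.18 later. Of the proteases that trim ATG8, *Atg4b* was at 0.47 at 4 h and *Atg4d* at -0.20. At 20 h and 32 h *Atg4d* was at 0.36 and 0.41 and *Atg4b* at -0.07 and -0.06.

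ULK1 and ULK2 are the kinases that start the process, ATG2A carries lipid to the growing membrane and ATG9A is a lipid scramblase. *Ulk1* had a signal of 3.35 in the control, 4.20 at 4 h, 3.57 at 20 h and 3.64 at 32 h, and its log2 ratio at 4 h was 0.85 ± 0.20, or 1.80-fold. *Ulk2* went the other way at that time. Its signal was 0.38 in the control, -0.12 at 4 h, 0.88 at 20 h and 0.86 at 32 h, so that 4 h was below the control and both later arrays above it. The second *Ulk2* probe had the same direction at 4 h with a larger difference, -1.26 against -0.50, or 2.40-fold lower. *Atg2a* had ratios between 0.24 and 0.31 and *Atg9a* between 0.24 and 0.28 at the 3 times.

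The class III PI3-kinase marks the membrane with PI3P, which the WIPI proteins bind. Its catalytic subunit gene *Pik3c3* had a signal of -1.36 in the control, -2.20 at 4 h, -1.39 at 20 h and -1.41 at 32 h. The ratio at 4 h was -0.84 ± 0.21 by this probe and -0.82 by the other, whose position overlaps it. The partner genes *Becn1* and *Uvrag* lay within the spot error of the control at 4 h, at 0.09 and 0.16. The effector genes were split. *Wipi1* had a signal of 1.77 in the control, 0.83 at 4 h, 1.82 at 20 h and 1.97 at 32 h, and its 3 probes gave -0.94, -0.89 and -0.81 at 4 h. *Wipi2*, which recruits the conjugation machinery, had a signal of 1.28 in the control, 1.94 at 4 h, 1.20 at 20 h and 1.32 at 32 h, a ratio at 4 h of 0.66 ± 0.20. The second *Wipi2* probe, with a signal of -0.42 in the control, 1.36 at 4 h, -0.24 at 20 h and -0.33 at 32 h, gave 1.79, or 3.45-fold. The median of both *Wipi2* probes at 4 h was 1.22, past 2-fold.

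Of the 13 genes with several probes measured at 4 h, *Gabarap* and *Wipi2* were the ones whose probes differed by more than 2-fold. In the other 11 the probes lay at most 0.76 apart on the log2 scale, and in 7 of them within 0.25.

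**Figure D2:**
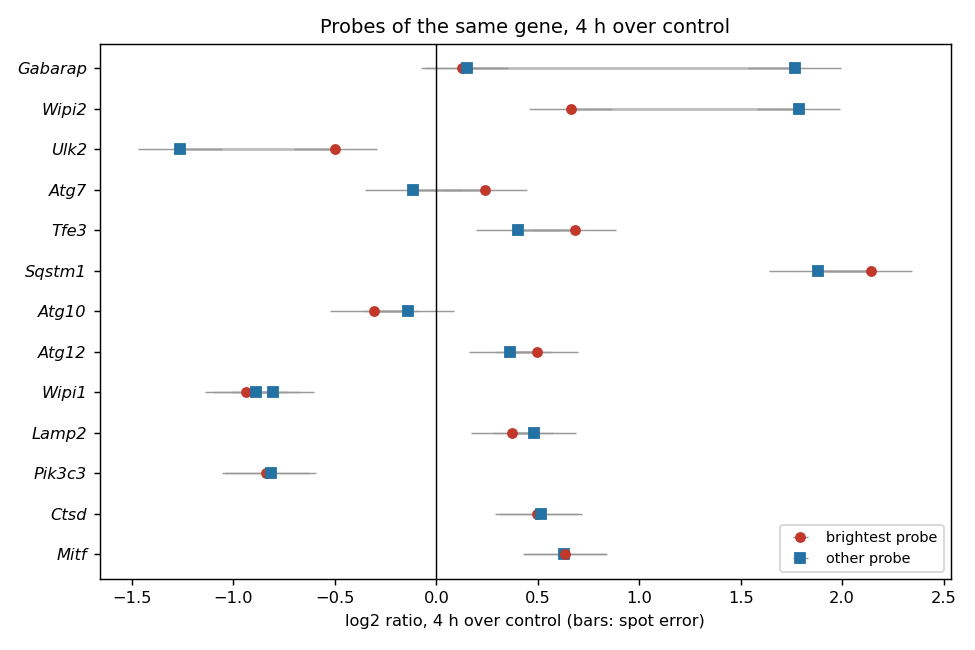
The log2 ratio of 4 h over the control (x axis) by each measured probe of the 13 genes with several (y axis), the brightest as a circle and the others as squares, with the spot error as bars. The probes of *Gabarap* span 1.64, those of *Wipi2* 1.12 and those of *Ulk2* 0.76, while those of *Mitf*, *Ctsd* and *Pik3c3* coincide.

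TFEB, TFE3 and MITF bind E-box sequences in the promoters of lysosomal and autophagy genes. *Mitf* was higher at all 3 times. Its signal was 1.90 in the control, 2.54 at 4 h, 2.73 at 20 h and 2.77 at 32 h, with ratios of 0.64, 0.83 and 0.87 and a second probe at 0.63, 0.89 and 0.74. *Tfe3* differed from the control by more than the spot error at 4 h only, with a signal of 2.81 in the control, 3.49 at 4 h, 2.93 at 20 h and 2.83 at 32 h and a ratio at 4 h of 0.68 by this probe and 0.40 by the other. *Tfeb* was dim, with a signal of -3.77 in the control, -4.19 at 4 h, -2.97 at 20 h and -2.93 at 32 h. Its ratio was -0.41 ± 0.31 at 4 h and 0.81 and 0.84 later. With normexp background correction the ratios of *Tfeb* were -0.13, within the spot error, 0.41 and 0.45. The second *Tfeb* probe was detected on none of the arrays.

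The letters these factors are known to bind were searched in the RefSeq promoter windows (GRCm38.p6), which run from 250 bases before to 50 bases after the start and matched 32 of the 37 genes. CACGTG, the same on both strands, was in the windows of 8 genes (25%), beside 8.09% of all 27025 genes with a window. The longer TCACGTGA of the CLEAR element, which contains it, was in those of 4 (12.5%), beside 1.12%. The 4 were *Ctsd*, *Mcoln1*, *Atg3* and *Gla*, the last with 2 copies. *Lamp1* held CACGTG 4 times. E-box elements are also bound by BMAL1 and CLOCK, as the paper states, so a match names no factor. Sites of TFEB, TFE3 and MITF are described for lysosomal and autophagy genes, so shares above those of all genes could be foreseen. The 27025 genes also include genes not detected on these arrays. The stretches below are shown because they carry the match, which is in capitals. All lie before the start and read along the strand of the gene. Their positions are chr7:142387899-142387946 minus for *Ctsd*, chr8:3500453-3500500 plus for *Mcoln1*, chr16:45158737-45158784 plus for *Atg3*, chrX:134601206-134601253 minus and chrX:134601173-134601220 minus for *Gla*, and chr8:13159090-13159160 plus for *Lamp1*.

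Ctsd: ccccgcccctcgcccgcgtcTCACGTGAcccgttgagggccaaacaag
Mcoln1: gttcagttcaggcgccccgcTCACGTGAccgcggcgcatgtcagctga
Atg3: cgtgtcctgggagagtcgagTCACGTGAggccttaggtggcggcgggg
Gla, first copy: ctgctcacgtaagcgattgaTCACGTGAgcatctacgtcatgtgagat
Gla, second copy: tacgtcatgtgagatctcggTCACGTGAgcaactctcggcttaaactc
Lamp1: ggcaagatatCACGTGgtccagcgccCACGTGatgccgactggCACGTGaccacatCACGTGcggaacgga

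The genes with the longer match did not share a time course. At 4 h, 20 h and 32 h the log2 ratios were 0.49, 0.35 and 0.42 for *Ctsd*, 0.17, 0.63 and 0.41 for *Mcoln1*, 0.32, 0.14 and 0.03 for *Atg3*, and 0.52, -0.27 and -0.12 for *Gla*. The remaining genes with CACGTG were *Atg5*, *Atg7*, *Ctsl* and *Lamp1*. Of these *Atg5* was the lowest gene at 4 h and the others were between 0.24 and 0.43. TGACNNNGC, the core of the antioxidant response element, was in the windows of 6 genes (18.8%), *Map1lc3b*, *Ulk2*, *Mitf*, *Ctsd*, *Ctsz* and *Hexa*, on either strand, beside 13.99% of all genes.

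The lysosomal genes made a narrower band at 4 h, in which *Lamp1*, *Lamp2*, *Mcoln1*, *Ctsb*, *Ctsl* and *Hexa* turned direction under at least 1 other scaling. LAMP1 and LAMP2 line the lysosomal membrane and mucolipin 1 is a cation channel in it. *Lamp1* had a ratio of 0.43 ± 0.20 at 4 h, 0.24 at 20 h and 0.17 at 32 h, and *Lamp2* of 0.37, 0.08 and 0.14. *Mcoln1* was highest at 20 h, with a signal of 2.27 in the control, 2.44 at 4 h, 2.90 at 20 h and 2.67 at 32 h. Its difference between 20 h and 32 h, 0.23, was the largest of the 36 genes.

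The 4 cathepsin genes, which encode lysosomal proteases, lay between 0.37 and 0.49 at 4 h. *Ctsd*, an aspartic protease, was at 0.49 by its brightest probe and at 0.51 by the other, and kept 0.35 at 20 h and 0.42 at 32 h. The cysteine protease genes *Ctsb*, *Ctsl* and *Ctsz* were at 0.38, 0.37 and 0.43 at 4 h and between -0.16 and 0.18 later. Of the glycosidases, *Gla*, which encodes alpha-galactosidase A, was at 0.52 ± 0.20 at 4 h, and *Hexa*, the alpha subunit of beta-hexosaminidase, at 0.21. *Neu1*, the lysosomal sialidase, had a signal of 2.59 in the control, 2.55 at 4 h, 3.41 at 20 h and 3.37 at 32 h. Both later arrays were higher, with ratios of 0.82 and 0.78. At 4 h the ratio of *Neu1* was -0.05 ± 0.20, and -0.17 to -0.45 under the 5 other scalings of the arrays.

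**Figure D3:**
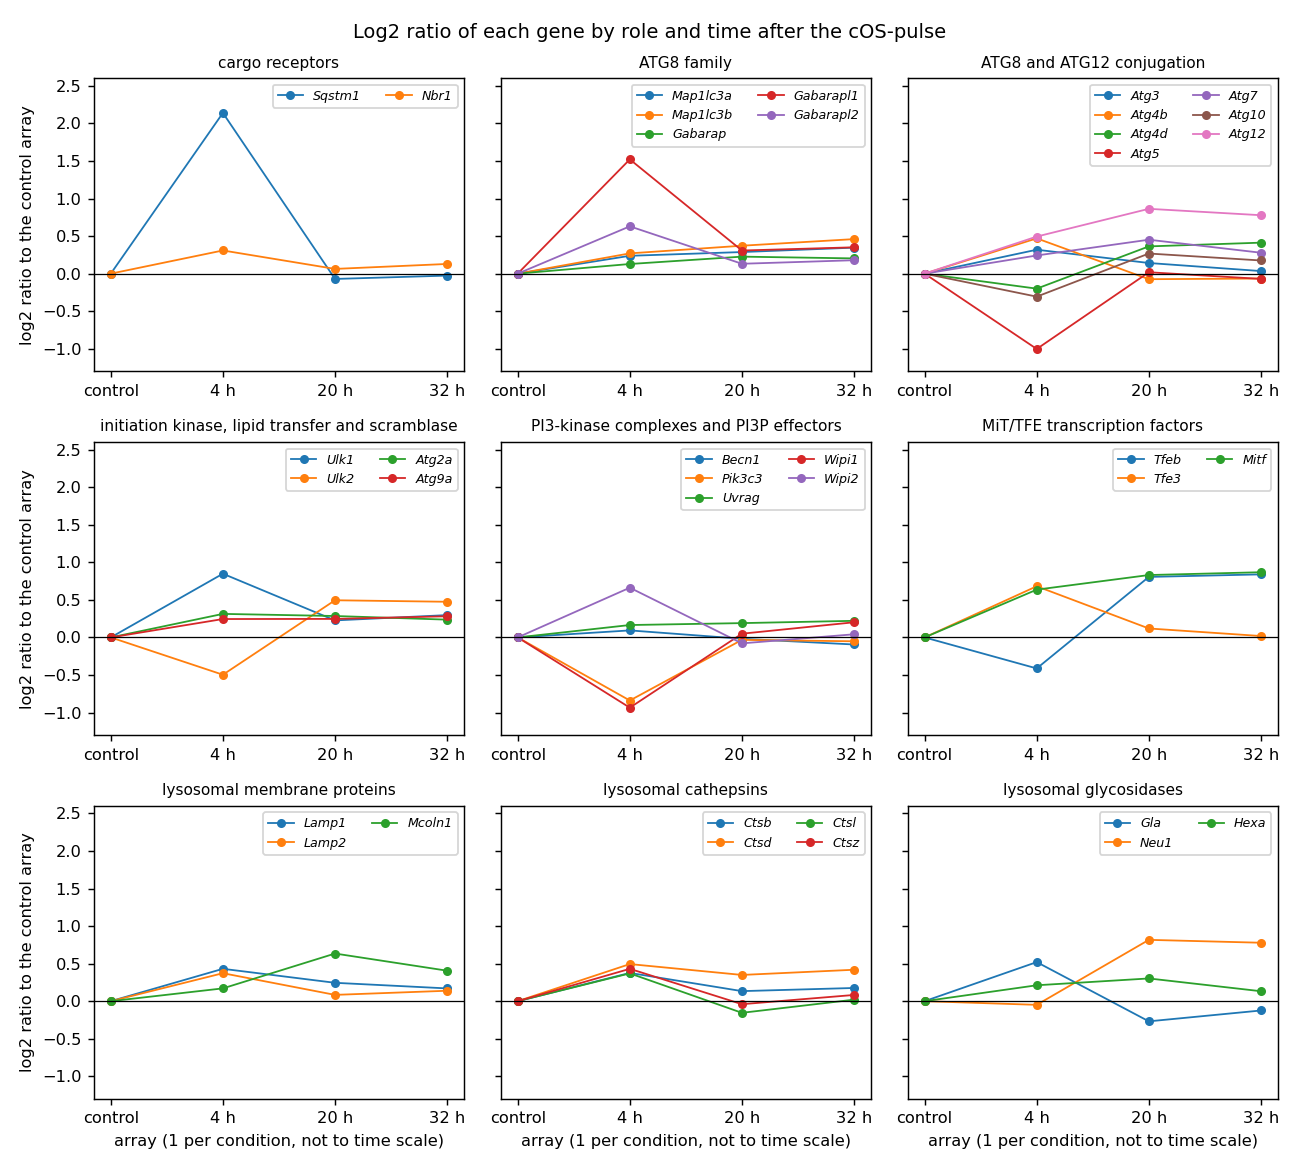
The log2 ratio to the control (y axis) of each measured gene at the control, 4 h, 20 h and 32 h (x axis, 1 array each), in a panel per role. *Sqstm1*, *Gabarapl1*, *Ulk1* and *Wipi2* peak at 4 h, *Atg5*, *Wipi1* and *Pik3c3* dip at 4 h, and *Atg12*, *Mitf*, *Tfeb* and *Neu1* are highest at 20 h and 32 h.

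At 20 h and 32 h no gene of the 36 was 2-fold from the control in either direction, though 4 were 2-fold higher at 20 h with spike-in scaling or no scaling, and at 32 h 1 with the former and 2 with the latter. The background was 1.41% higher and 3.44% lower at 20 h, and 2.21% higher and 2.67% lower at 32 h. At 1.5-fold, 5 genes (13.9%) were higher at 20 h, *Atg12*, *Mcoln1*, *Mitf*, *Neu1* and *Tfeb*, beside 4.61% of all genes. At 32 h these were 4 (11.1%), the same without *Mcoln1*, beside 6.0%. None was 1.5-fold lower, beside 7.65% at 20 h and 6.93% at 32 h. The median of the 36 ratios was 0.23 at 20 h and 0.19 at 32 h, whereas that of all genes was 0.01 at each time. 28 genes were above 0 at 20 h and 30 at 32 h, beside 51.3% and 51.2% of all genes. 16 ratios at 20 h and 20 at 32 h did not exceed their spot error. Both times rest on the same control array, so they are not independent of each other. That array carries the 4 h label, so the ratios at 20 h and 32 h also hold the longer time in culture. The raised middle at these times was not particular to the 36 genes. In the lists described below, medians at 20 h and 32 h were 0.25 and 0.29 for other autophagosome genes and 0.13 and 0.15 for other lysosomal genes. For genes of the mTORC1 pathway they were 0.12 and 0.11.

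**Figure D4:**
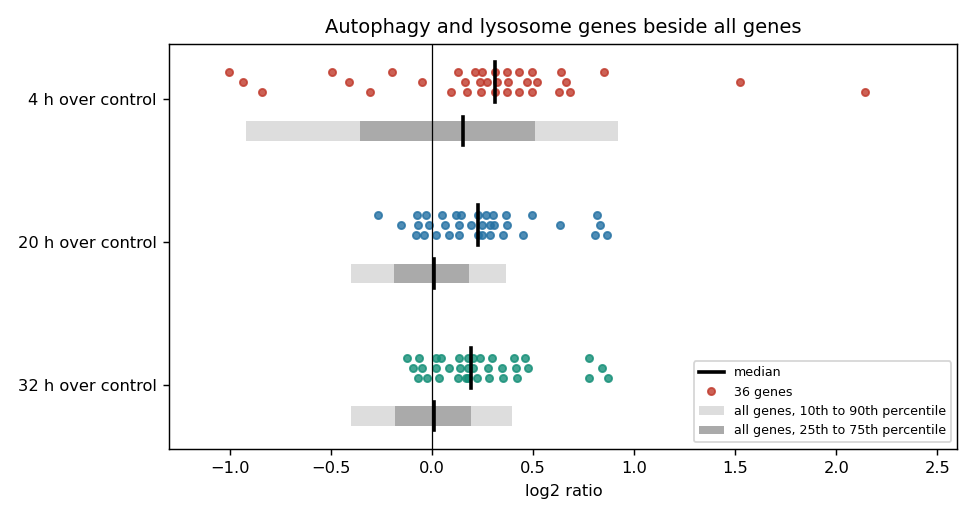
Log2 ratios (x axis) at 4 h, 20 h and 32 h over the control (y axis): dots are the 36 genes, gray bars span the 10th to 90th and 25th to 75th percentiles of all genes with a measured ratio, and black ticks are medians. The medians of the 36 genes lie at 0.31, 0.23 and 0.19 and those of all genes at 0.15, 0.01 and 0.01.

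Set against each other, the 20 h and 32 h arrays differed little in these genes. The log2 ratio of 20 h over 32 h ran from -0.18 for *Ctsl* to 0.23 for *Mcoln1*, and 35 of the 36 ratios lay within their spot error. None was 2-fold higher or lower, beside 0.867% and 2.02% of all genes.

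The position of the group against 0 at 4 h depended on the scaling of the arrays, since the 5 other scalings moved the median of all genes at 4 h by -0.12 to -0.40. The median of the 36 genes went from 0.31 to -0.09 with spike-in scaling. Its distance above the median of all genes was 0.16, which 4 of the 5 cannot change since they move all genes of an array alike, and 0.12 with quantile normalization. At 4 h, 20 genes had the same direction in all 5. Higher were *Sqstm1*, *Gabarapl1*, *Gabarapl2*, *Atg4b*, *Atg12*, *Ulk1*, *Wipi2*, *Tfe3*, *Mitf*, *Ctsd*, *Ctsz* and *Gla*, and lower were *Atg4d*, *Atg5*, *Atg10*, *Ulk2*, *Pik3c3*, *Wipi1*, *Tfeb* and *Neu1*. Since each of the 5 moved the median of all genes down at 4 h, genes below 0 could hardly turn, and the sign of the lower genes is no check. The other 16, *Nbr1*, *Lamp1*, *Lamp2*, *Ctsb* and *Ctsl* among them, turned under at least 1.

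**Figure D5:**
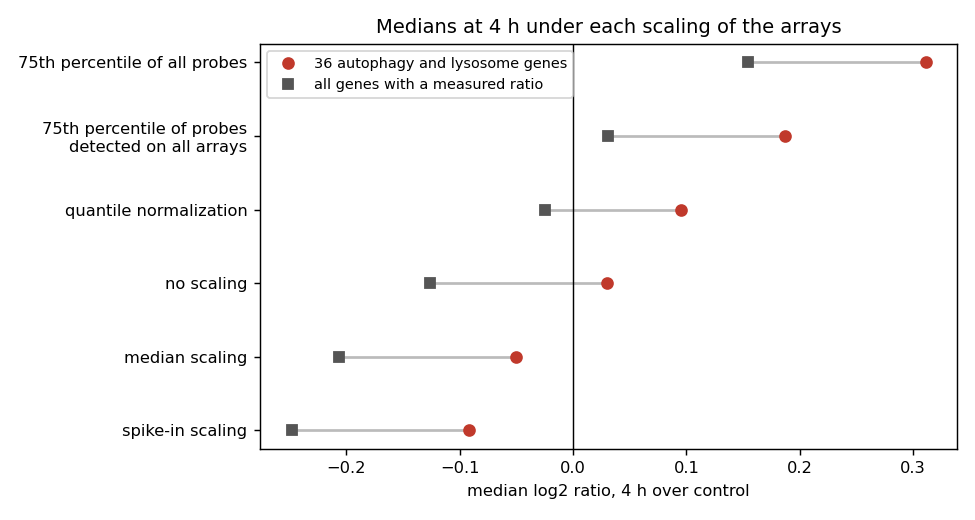
The median log2 ratio of 4 h over the control (x axis) under each scaling (y axis), for the 36 genes as circles and all genes with a measured ratio as squares. Except under quantile normalization, where the distance is 0.12, each scaling moves both medians alike by construction. Relative to 0, the median of the 36 genes runs from 0.31 to -0.09.

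Further genes of the route were taken from lists of the same kind. Of 32 other autophagosome genes on the array, 31 had a ratio at 4 h with a median of 0.15, as for all genes. Under the 5 other scalings this median was between -0.25 and 0.03. 1 of the 31 (3.23%, beside 11.3% of all genes) was 2-fold higher, *Tollip*, a ubiquitin-binding adaptor, at 1.39 ± 0.20, and 1 (3.23%, beside 8.74%) was 2-fold lower, *Bnip3*, a mitophagy receptor, at -1.08 ± 0.20. *Bnip3* had a signal of 4.10 in the control, 3.01 at 4 h, 4.53 at 20 h and 4.77 at 32 h, again with 4 h alone below the control.

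The V-ATPase acidifies the lysosome. Its 17 subunit genes had a median of 0.60 at 4 h, 0.23 at 20 h and 0.26 at 32 h, beside 0.15, 0.01 and 0.01 for all genes. At 4 h, 15 of them were above 0. Under the 5 other scalings their median at 4 h was between 0.20 and 0.48, with 9 to 13 of them above 0. *Atp6v1h*, a subunit of the ATP-hydrolyzing part, had a signal of 1.67 in the control, 3.30 at 4 h, 1.98 at 20 h and 1.94 at 32 h and was 3.08-fold higher at 4 h. *Atp6v0b* was 2.14-fold higher at 4 h, so that 2 of 17 (11.8%) passed 2-fold, beside 11.3% of all genes. *Atp6v0e2*, named here after its values were seen, was at 1.26 at 20 h and 1.33 at 32 h, past 2-fold at both. It was the 1 of 17 (5.88%) that was 2-fold higher at each time, beside 1.41% and 2.21% of all genes.

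Of 49 other lysosomal genes, 44 had a ratio at 4 h and 3 (6.82%) were at least 2-fold higher, beside 11.3% of all genes. *Hgsnat*, an acetyltransferase of heparan sulfate breakdown, was at 1.04 ± 0.20. The other 2 were not well above background in the control, so that their folds are bounds. *Ctss*, the gene of cathepsin S, was at least 20.7-fold higher and was detected on no array but that of 4 h, with signals of -6.82 in the control, -0.39 at 4 h, -7.24 at 20 h and -6.78 at 32 h. *Manba*, which encodes beta-mannosidase, was at least 6.69-fold higher. Its signals were -5.66 in the control, -2.02 at 4 h, -3.96 at 20 h and -3.90 at 32 h. The median of the 42 measured ones at 4 h was 0.10, lower than the 0.15 of all genes. Under the 5 other scalings it was below 0, between -0.30 and -0.02.

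mTORC1 restrains autophagy when nutrients are ample. Of 20 measured genes of this pathway, 2 (10%) were at least 2-fold higher at 4 h and 1 (5%) lower, beside 11.3% and 8.74% of all genes. Their median was 0.16, and between -0.24 and 0.04 under the 5 other scalings. *Sesn2*, a sestrin that inhibits mTORC1, had a signal of 0.48 in the control, 2.63 at 4 h, 0.61 at 20 h and 0.72 at 32 h, 4.43-fold higher at 4 h. *Fnip2*, a folliculin partner, was 3.05-fold higher. *Sesn1*, the sestrin related to *Sesn2*, was 2.12-fold lower, with 1.47 in the control and 0.39 at 4 h.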

How the data were processed

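The authors deposited, per spot, intensities from Agilent Feature Extraction 10.7.3.1 (per the labels' processing notes), with background subtracted, and a table that equals them up to 1 divisor per array, checked to within 0.000122%. Probe positions are those of the array design (mm9). From the deposited intensities, log2 signals were averaged over the unflagged spots of 39427 probes and scaled by subtracting each array's 75th percentile. No spot was saturated. Detection required 50% or more of a probe's spots to carry the flag for signal well above background. Ratios were measured where both arrays detected the probe and bounds where 1 did. The threshold was 2-fold, and background shares count genes by their brightest probe, bounds included. Genes more than 1.5-fold from the control at any time, or with probes over 2-fold apart at 4 h, are given on every array. In the other lists, up to 5 genes past 2-fold at 4 h are named. The 37 genes and the lists were chosen with earlier results of these data known. Precision is limited by the number of arrays. The steps from scaled signal to ratio, bound and 2-fold call were tested on simulated data, and the other steps were not. Alternatives are listed in the closing section, with limma 3.58.1 in R 4.3.3 for normexp. Calculations used Python 3.11.15, numpy 2.4.6 and pandas 2.3.3. Promoter windows are from RefSeq. Promoters of *Map1lc3a*, *Atg12*, *Becn1*, *Pik3c3* and *Ctsb* were not analysed here.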

Additional observations from a re-analysis of the deposited data

Results flagged for a closer look

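*Ulk2* and *Tfeb* were below the control at 4 h and above it at both later times, each by more than the spot error. The log2 ratio of *Ulk2* was -0.50 at 4 h, 0.49 at 20 h and 0.47 at 32 h, and that of *Tfeb* was -0.41, 0.81 and 0.84. With normexp background correction the ratio of *Tfeb* at 4 h was -0.13, within its spot error of 0.31, and that of *Ulk2* was -0.45. With 1 array per time and a shared control, the difference between times was not tested.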

How the results depend on the processing

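With 1 array per condition, no replicate could be left out. No paired analysis was possible because each group held 1 array. *Sqstm1* and *Gabarapl1* stayed at least 2-fold higher at 4 h under all 11 alternative settings. *Atg5* lay at the threshold: the count of genes 2-fold lower at 4 h was 1, but 3 with median scaling, spike-in scaling or no scaling, which add *Pik3c3* and *Wipi1*, 2 with the 75th percentile of probes detected on all arrays or with centring on the median of all genes (an alternative added after seeing the data), and 0 with normexp correction. The median at 4 h, 0.31, was 0.095 with quantile normalization, 0.030 without scaling, -0.050 when scaled by the median and -0.092 when scaled by the spike-in probes. The median at 20 h was 0.56 without scaling. The count 2-fold higher at 20 h, 0, became 4 with spike-in scaling or no scaling, and that at 32 h, 0, became 1 with spike-in scaling, 2 without scaling, and 1 without a detection filter or in the deposited table, both of which count *Optn*. At a threshold of 1.5-fold the counts higher were 7, 5 and 4 at 4 h, 20 h and 32 h and that lower at 4 h was 3. At 3-fold, 1 was higher and 0 lower at 4 h. The other 137 values of counts and medians stayed within 1.5 times or the spot error, and no gene past 2-fold changed direction. Signal over background limits *Tfeb* and *Optn*.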
